A study of Homo sapiens with 15 samples.

Results

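The human transcripts of A549 tumours were compared between mice restrained before and mice restrained after the tumour cells were transplanted. A549 is an established human lung adenocarcinoma line with an active antioxidant (NRF2) programme. Per the labels, A549 cells were placed under the skin of athymic BALB/c nude mice and RNA was taken from the tumours. Restraint came 7 days before the cells were transplanted in the group named stress (n = 5), and 12 days after it in the group named post-stress (n = 5). A no-stress group (n = 5) had no restraint. Restraint is a standard psychological stressor of rodents. Whether 7 and 12 count days of restraint or its starting day is not given in the sources used here, nor are the age of the mice and the day on which tumours were taken. Timing, possible duration and the time between restraint and sampling therefore cannot be told apart. The members are the 60649 human genes among 117590 rows of the count table, whose other 56941 rows are mouse genes. Of the human genes, 15435 passed a filter on low counts and were tested. The labels number the libraries within a group, each is taken here as 1 tumour, and p-values measure only the spread between these libraries.

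Restraint raises glucocorticoids from the adrenal gland and catecholamines from nerves and adrenal medulla, and tumour cells read these through the glucocorticoid receptor and beta-adrenergic receptors. Interferons are secreted by cells that sense viral or misplaced nucleic acid. They act through JAK kinases and transcription factors that bind a short element in the promoters of interferon-stimulated genes and also raise MHC class I antigen presentation.

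Total counts per library ranged from 16729091 to 19680449 and human counts from 12877165 to 15892705. Mouse genes, which stand for host cells, took 20.8%, 18.6%, 19.4%, 21.8% and 24.6% of counts in stress replicates 1 to 5 and 12.4%, 15.4%, 14.6%, 23.0% and 22.7% in post-stress replicates 1 to 5. The difference in means was 3.42 percentage points (exact 2-sided permutation p = 0.1905, adjusted over 2 shares p = 0.1905, smallest p possible 0.00794). Of 12 A549 markers 11 were tested and none changed. KRT8 stood at 3846 and 3777 CPM (counts scaled to the human total of a library by TMM) with stress and post-stress, AKR1B10 at 3703 and 3843 CPM, and KRT19 did not pass the filter. Of 34 leukocyte and stroma genes that A549 cells should lack, 11 passed the filter and none changed. PTPRC, the pan-leukocyte antigen CD45, had 6 counts over all 15 libraries and AIF1 none. The summed level of these 34 genes was 343 to 422 CPM with stress and 227 to 623 CPM with post-stress, most of it on S100A8, S100A9 and COL1A1. Their part in the results was not tested, and the assignment of reads that match both genomes is not stated. In bulk tumours, fewer cells of a kind and less RNA per cell cannot be told apart.

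Expression of 6 of 15435 genes differed between the 2 restraint schedules, which is 0.0389% of the genes tested (quasi-likelihood test of edgeR, with p adjusted by Benjamini-Hochberg and called under 0.05). Of these, 4 were higher with stress (0.0259%), namely MDK, PPM1K, H2BC4 and H2BC12, and 2 were lower (0.0130%), namely CERK and RAB26. An unadjusted p under 0.05 was reached by 1716 genes (11.1%), 887 higher (5.75%) and 829 lower (5.37%). The count of 6 moved with single libraries. Leaving out stress replicate 4 gave 189 called genes (1.21%), leaving out no-stress replicate 2 gave 13, leaving out post-stress replicate 5 gave 1, and leaving out stress replicate 2, 3 or 5 or post-stress replicate 2 or 3 gave 0. The Wald test of DESeq2 called 203 genes (1.32%). With the mouse share as a covariate no gene passed, and the 6 genes then had an adjusted p of 0.0841.

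Set beside the unrestrained mice, the 2 schedules gave unequal counts. Stress against no stress changed 1613 genes (10.5%) and post-stress against no stress 130 genes (0.842%). Both comparisons share the 5 no-stress libraries.

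MDK encodes midkine, a heparin-binding growth factor and cytokine that acts on tumour cells, vessels and macrophages. It lies on chromosome 11 (hg38, 46380756 to 46383837, plus strand). MDK stood at 21.6, 20.4, 24.4, 14.3 and 21.7 CPM in stress replicates 1 to 5 and at 7.25, 7.80, 5.89, 10.2 and 4.78 CPM in post-stress replicates 1 to 5. The groups did not overlap, with stress replicate 4 the lowest of its group and post-stress replicate 4 the highest of its own. Across all tested genes 1.70% had groups that did not overlap. MDK rose 2.85-fold with stress over post-stress (95% confidence interval 2.04 to 3.99, log2 fold change 1.51, SE 0.23, adjusted p = 0.0242). Without stress it stood at 8.32 ± 3.06 CPM (SD, n = 5), and it rose in the stress group against no stress (log2 fold change 1.30, adjusted p = 0.00391), while the value for post-stress against no stress was −0.21 (adjusted p = 0.724). None of the 8 tested receptors and binding partners of midkine passed. ITGB1, an integrin subunit, had a log2 fold change of 0.16 (adjusted p = 0.567) and NCL, the nucleolar protein nucleolin, of −0.17 (adjusted p = 0.491).

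PPM1K encodes a mitochondrial phosphatase that activates the branched-chain ketoacid dehydrogenase, the committed step in the breakdown of leucine, isoleucine and valine. It lies on chromosome 4 (88257620 to 88284769, minus strand). Its level was 7.38, 8.09, 11, 6.29 and 10.8 CPM in stress replicates 1 to 5 and 3.59, 1.92, 1.33, 3.43 and 3.28 CPM in post-stress replicates 1 to 5. Every stress library lay above every post-stress library, and the no-stress libraries, at 2.29 to 4.51 CPM, also lay below all of them. PPM1K rose 3.21-fold (2.16 to 4.77, adjusted p = 0.0290). Of 15 tested genes of branched-chain amino acid breakdown only PPM1K passed. The other 14 had a log2 fold change between −0.41 and 0.16, among them the dehydrogenase subunits BCKDHB (−0.00) and DBT (0.16) and the opposing kinase BCKDK (−0.11, adjusted p = 0.688).

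The neighbours of PPM1K on chromosome 4 include HERC6 and HERC5, interferon-stimulated genes of which HERC5 encodes the ligase that attaches ISG15 to proteins. HERC6 starts 94.0 kb from PPM1K and HERC5 172.3 kb from it. HERC5 stood at 23.3, 18, 24.9, 7.23 and 23.4 CPM in stress replicates 1 to 5 and at 5.80, 3.15, 5.05, 7.94 and 4.49 CPM in post-stress replicates 1 to 5, and stress replicate 4 lay inside the post-stress range. The difference of 3.67-fold did not pass (2.05 to 6.56, adjusted p = 0.0982), nor did that of HERC6, 2.65-fold (adjusted p = 0.131). PPM1K was 6.29 CPM in stress replicate 4, the lowest of its group and above all post-stress libraries. Of the other tested neighbours, ABCG2, a drug exporter, had a log2 fold change of −0.43 (adjusted p = 0.403), PKD2 of −0.03, NAP1L5 of 0.05 and FAM13A of 0.11.

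H2BC4 and H2BC12 encode histone H2B, a core protein of the nucleosome, and lie in the large histone gene cluster on chromosome 6 (H2BC4 from 26114873 to 26123926 and H2BC12 from 27146418 to 27146798, both on the minus strand). H2BC4 stood at 6.85, 7.32, 10.3, 5.61 and 10.3 CPM in stress replicates 1 to 5 and at 4.49, 2.46, 2.74, 3.21 and 2.42 CPM in post-stress replicates 1 to 5. H2BC4 rose 2.63-fold (1.94 to 3.57, adjusted p = 0.0242). H2BC12 stood at 31.5, 34.7, 39.9, 31.8 and 36.7 CPM in stress replicates 1 to 5 and at 25.9, 17.8, 22.6, 22.8 and 20.8 CPM in post-stress replicates 1 to 5, and rose 1.59-fold (1.35 to 1.86, adjusted p = 0.0290). The groups overlapped for neither gene. The no-stress mean lay between the means of the restrained groups for both, at 4.55 ± 0.521 CPM for H2BC4 and 28.2 ± 3.71 CPM for H2BC12 (SD, n = 5). H2BC4 rose with stress against no stress (log2 fold change 0.83, adjusted p = 0.0169). With post-stress against no stress H2BC4 did not pass (−0.57, adjusted p = 0.206). H2BC12 passed against no stress with neither stress (adjusted p = 0.0809) nor post-stress (adjusted p = 0.127).

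Replication-dependent H2B genes carry an octamer element that binds the factor OCT1, here searched as ATTTGCAT on both strands of RefSeq promoter windows (GRCh38.p14, 250 bases before to 50 after each gene's start). It was found for 6 of 8 tested H2B genes (75%), against 1.8% of 27305 promoters. The bases before the starts of the 2 called H2B genes are shown because both carry this element, which is in capitals. H2BC4 lies head to head with H2AC6 at a distance of 218 bases, and its sequence is that whole gap (chr6:26123927-26124144, minus strand). That of H2BC12 is chr6:27146859-27147108, minus strand.
H2BC4: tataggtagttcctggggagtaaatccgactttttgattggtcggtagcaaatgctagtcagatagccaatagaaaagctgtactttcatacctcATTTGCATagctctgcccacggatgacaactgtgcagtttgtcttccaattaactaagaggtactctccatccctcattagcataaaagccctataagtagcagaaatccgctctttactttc
H2BC12: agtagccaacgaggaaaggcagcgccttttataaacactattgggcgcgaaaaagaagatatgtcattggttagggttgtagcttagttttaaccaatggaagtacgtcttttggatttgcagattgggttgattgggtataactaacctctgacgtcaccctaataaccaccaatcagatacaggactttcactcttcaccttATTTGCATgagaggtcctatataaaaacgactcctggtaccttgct
The octamer begins 123 bases before the start of H2BC4 and 46 bases before that of H2BC12, counted from the starts that RefSeq gives.

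Histone genes as a family lay mostly on the same side. Of 21 tested clustered and linker histone genes, 18 had a log2 fold change above 0 (49.2% of all tested genes did), 10 had an unadjusted p under 0.05 (11.1% of all genes) and the median was 0.39, against −0.00 over all tested genes. The family was examined because H2BC4 and H2BC12 were called, and these counts include both. Its members are not taken as separate observations. Only H2BC4 and H2BC12 passed. H2AC6, the H2A gene across the gap from H2BC4, stood at 72.1 ± 17.6 and 45.3 ± 7.72 CPM (SD, n = 5; 1.59-fold, adjusted p = 0.131). H2BC18 stood at 3.83 ± 1.61 and 1.65 ± 0.55 CPM (2.31-fold, adjusted p = 0.131), and H1-10 and H3C2 had log2 fold changes of −0.14 and −0.36. Genes of DNA replication, with which these histones are made in dividing cells, had a median of −0.18. H2B genes are near-identical in their coding sequence, so that reads may have been split between copies.

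CERK encodes ceramide kinase, which makes ceramide-1-phosphate, and lies on chromosome 22 (46684411 to 46738261, minus strand). It stood at 42.1, 32.6, 38, 42.4 and 30.9 CPM in stress replicates 1 to 5 and at 56.4, 64.5, 56.5, 55.3 and 50.1 CPM in post-stress replicates 1 to 5. All stress libraries lay below all post-stress and all no-stress libraries (58.5 to 63.5 CPM). CERK fell to 0.658 of the post-stress level (0.575 to 0.752, log2 fold change −0.60, SE 0.09, adjusted p = 0.0242), and fell likewise against no stress (log2 fold change −0.69, adjusted p = 7.95e-04), while the value for post-stress against no stress was −0.09 (adjusted p = 0.71). Of 26 tested enzymes and carriers of ceramide and sphingolipid metabolism CERK alone passed, and the median of the 26 was 0.02. ASAH2, a ceramidase, stood at 3.71 ± 1.43 and 1.52 ± 0.156 CPM (SD, n = 5; adjusted p = 0.0934), SMPD2, a sphingomyelinase, at 7.42 ± 1.20 and 10.4 ± 1.20 CPM (adjusted p = 0.141), and UGCG, which makes glucosylceramide, at 69.1 ± 20.2 and 46.0 ± 7.26 CPM (adjusted p = 0.239).

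RAB26 encodes a small GTPase of secretory granules and lies on chromosome 16 (2140803 to 2154165, plus strand). It stood at 8.96, 7.67, 7.47, 6.15 and 6.77 CPM in stress replicates 1 to 5 and at 15.5, 11.8, 13.5, 10.8 and 12.3 CPM in post-stress replicates 1 to 5. The groups did not overlap, and RAB26 fell to 0.579 of the post-stress level (0.479 to 0.701, adjusted p = 0.0290). The no-stress level of 12.5 ± 1.40 CPM (SD, n = 5) was near that of post-stress (log2 fold change of post-stress against no stress 0.03, adjusted p = 0.946). The other 11 tested Rab genes of secretion did not pass, with RAB3D at a log2 fold change of −0.33 (adjusted p = 0.245) and RAB27B at 0.19. SNHG19, a host gene of small nucleolar RNAs, lies 631 bases beyond the end of RAB26 on the opposite strand, with the 3′ ends of both facing each other. It stood at 12.5 to 17.8 CPM with stress and at 19.1 to 42.3 CPM with post-stress, also without overlap, and did not pass (0.529-fold, adjusted p = 0.116). Whether the counting used strand is not stated.

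**Figure D1:**
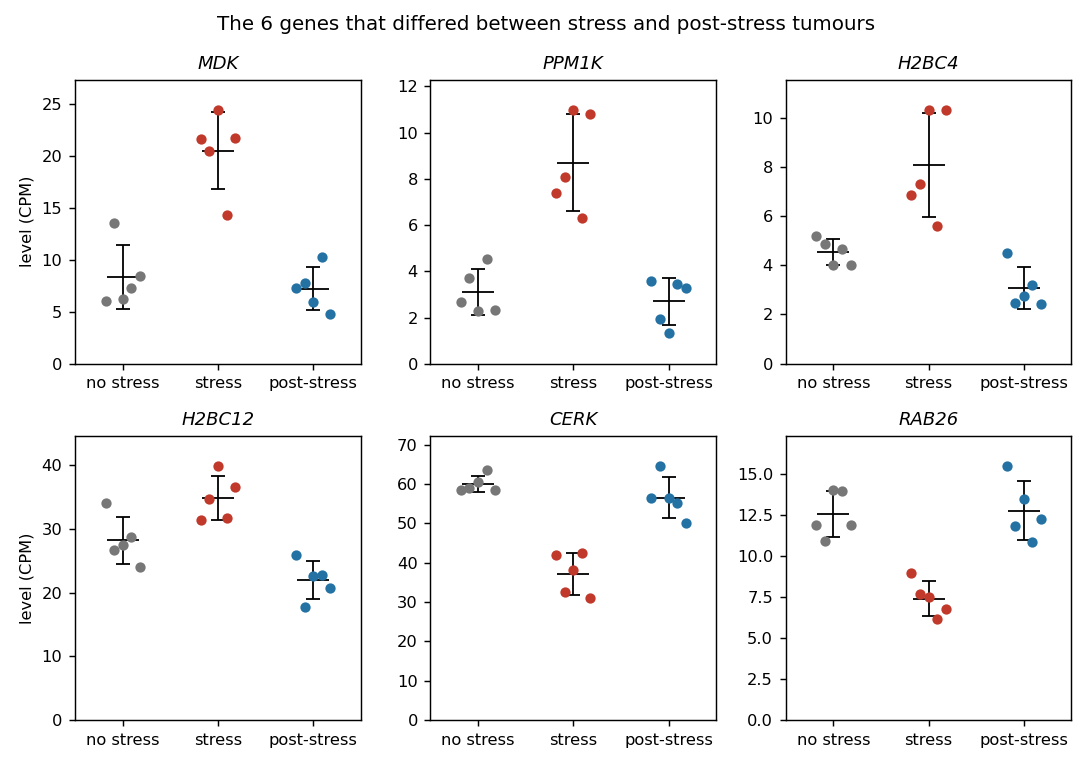
Levels in CPM of the 6 genes that passed, with 1 point per tumour and the mean ± SD (n = 5) of the no-stress, stress and post-stress groups. MDK, PPM1K, H2BC4 and H2BC12 sit higher and CERK and RAB26 lower in all 5 stress tumours than in all 5 post-stress tumours. The no-stress mean of H2BC12 lies between the means of the restrained groups.

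Over 23 alternatives the log2 fold change ranged from 1.39 to 1.67 for MDK, from 1.51 to 1.80 for PPM1K, from 1.29 to 1.57 for H2BC4, from 0.59 to 0.73 for H2BC12, from −0.66 to −0.55 for CERK and from −0.87 to −0.71 for RAB26. The highest adjusted p was 0.117 for MDK, H2BC4 and CERK, 0.127 for H2BC12 and RAB26 and 0.164 for PPM1K. Of 15 fits that each left out 1 library, CERK passed in 10, H2BC4 and PPM1K in 9, MDK in 8 and H2BC12 and RAB26 in 7. All 6 were lost without stress replicate 2, 3 or 5 and without post-stress replicate 2 or 3. Without post-stress replicate 5 all but CERK were lost. MDK and RAB26 were also lost without post-stress replicate 1, H2BC12 without post-stress replicate 4, and H2BC12 and RAB26 without no-stress replicate 3. When the edgeR test used the 10 restrained libraries alone, MDK was the only gene to pass (adjusted p = 0.0267).

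Interferon-stimulated genes had the highest median of the 38 lists examined, and none of them passed. Of 38 tested members, all 38 had a log2 fold change above 0 (49.2% of all genes), 36 had an unadjusted p under 0.05 in that direction (5.75% of all genes), and the median was 1.38 against −0.00 over all tested genes. The 38 members vary together and are not separate observations. IFIT2, which binds viral RNA, stood at 548.9, 413, 481, 159 and 437 CPM in stress replicates 1 to 5 and at 112, 64.8, 69.8, 108 and 105 CPM in post-stress replicates 1 to 5 (4.44-fold, 1.95 to 10.1, adjusted p = 0.154). MX1, a GTPase that traps viruses, stood at 350.2, 296, 352, 85.3 and 307 CPM in stress replicates 1 to 5 and at 87.2, 57.6, 91.8, 119 and 111 CPM in post-stress replicates 1 to 5 (2.98-fold, adjusted p = 0.133). In both, stress replicate 4 was by far the lowest of its group, and for MX1 it lay below 4 of the 5 post-stress libraries.

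ISG15, a ubiquitin-like modifier, stood at 804, 521, 704, 183 and 736 CPM in stress replicates 1 to 5 and at 223, 128, 198, 244 and 180.2 CPM in post-stress replicates 1 to 5 (3.03-fold, 1.65 to 5.53, adjusted p = 0.145). USP18, which removes ISG15 and dampens the interferon receptor, stood at 37.0 ± 12.6 and 14.6 ± 2.13 CPM (SD, n = 5; 2.53-fold, adjusted p = 0.0934). PARP14, a mono-ADP-ribosyltransferase, had the smallest p of the list, with 712, 651, 714, 333 and 645 CPM in stress replicates 1 to 5 and 198 to 318 CPM with post-stress (2.33-fold, 1.63 to 3.32, adjusted p = 0.0905). CMPK2, a mitochondrial nucleotide kinase, stood at 23.5 to 116 CPM with stress and 13.3 to 23.4 CPM with post-stress (4.65-fold, adjusted p = 0.137). PARP14, CMPK2 and IFIT2 were the 3 of 38 members whose groups did not overlap (0.952% of all tested genes were higher without overlap). CMPK2 did so only narrowly, at 23.5 against 23.4 CPM. IRF7 (log2 fold change 0.11) and IFI27 (0.66) were the 2 members with an unadjusted p above 0.05.

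By library, the mean log2 CPM of the 38 genes was 7.42, 7.03, 7.39, 5.86 and 7.32 in stress replicates 1 to 5, 5.85, 5.22, 5.40, 6.05 and 5.88 in post-stress replicates 1 to 5, and 5.47, 6.53, 4.81, 6.0 and 5.99 in no-stress replicates 1 to 5. Thus 4 stress tumours lay above all others, and stress replicate 4 lay within the range of the unrestrained and post-stress tumours. Its 14648460 human counts and its mouse share of 21.8% lay within the range of its group. On the first principal component of the 10 restrained libraries (19.2% of the variance) it lay at 10.8, within the post-stress range of −1.97 to 34.0. The other 4 stress tumours lay at −27.35 to −16.0. On the second component (15.8% of the variance) stress replicate 4 lay at −20.2, beside stress replicate 5 at −19.5. Which genes carry these components was not examined, so a difference beyond the interferon genes is not shown. The cause of the position of stress replicate 4 was not tested. Without stress replicate 4, 31 of the 38 genes passed (0.884% of all tested genes were then higher and 0.327% lower), with ISG15 at 3.54-fold (adjusted p = 0.0174), MX1 at 3.49-fold (adjusted p = 0.0111) and a list median of 1.58. These list counts were added after the low value of this library on the same list was seen, so they are not separate support. With all libraries the Wald test of DESeq2 also called 31 of the 38 (0.952% of all genes were higher and 0.363% lower by that test), and 30 of the 31 were called both ways. Leaving out no-stress replicate 2 gave 1 of the 38, and none passed in any other fit, among them limma-voom and DESeq2 size factors.

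The interferon list also placed the 2 restrained groups differently beside the unrestrained tumours. Against no stress 23 of the 38 genes rose with stress (5.23% of all genes rose), with a median of 1.21, and none changed with post-stress (0.596% of all genes rose), with a median of −0.20. These comparisons share their no-stress libraries.

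**Figure D2:**
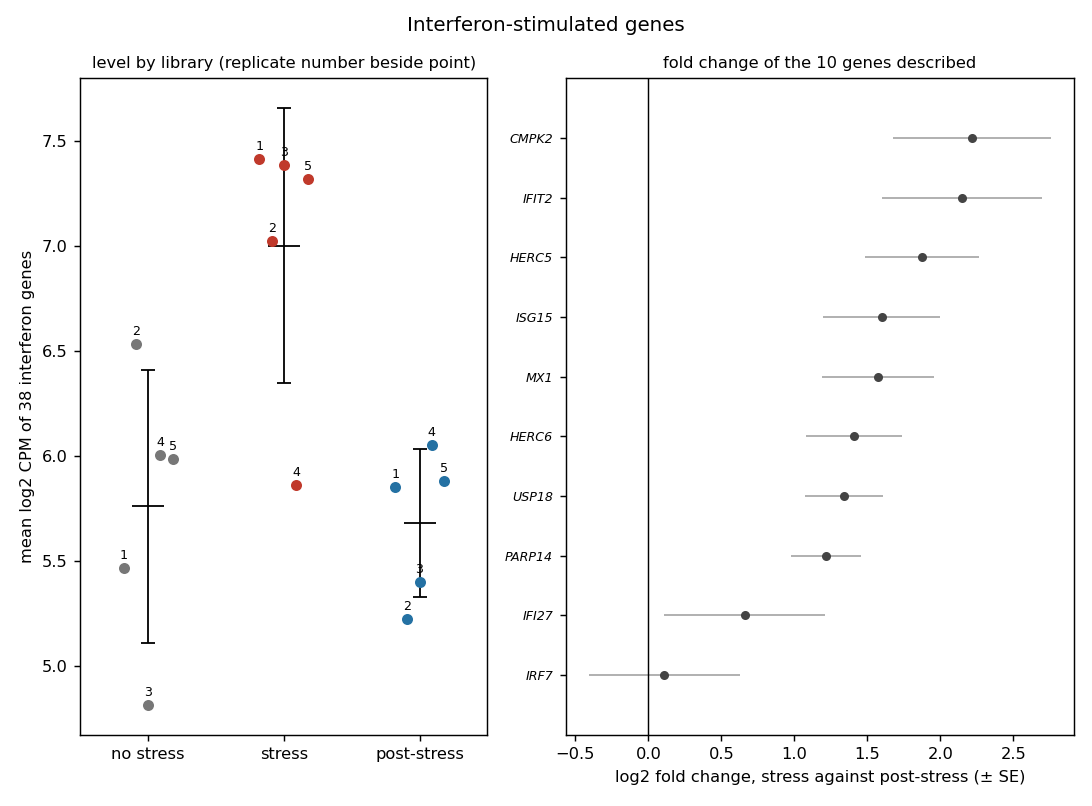
Left, mean log2 CPM of 38 interferon-stimulated genes in each tumour, with the replicate number beside each point and the mean ± SD (n = 5) of each group. Right, log2 fold change of stress against post-stress of the 10 members described in the text, with its SE. Stress replicate 4, at 5.86, sits apart from the other 4 stress tumours, and the 10 genes lie between 0.11 (IRF7) and 2.22 (CMPK2).

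The core of the interferon-stimulated response element, searched on both strands of the same promoter windows as a pair of GAAA half-sites with any 2 bases between them, was found in 19 of the 30 members that have a window (63.3%), against 3.65% of 27305 promoters. The 250 bases before the start are shown for PARP14, which had the smallest p, for HERC5, the neighbour of PPM1K, and for ISG15, with the matches in capitals. They are chr3:122680589-122680838 for PARP14, chr4:88456869-88457118 for HERC5 and chr1:1013247-1013496 for ISG15, all on the plus strand of GRCh38.p14 in RefSeq.
PARP14: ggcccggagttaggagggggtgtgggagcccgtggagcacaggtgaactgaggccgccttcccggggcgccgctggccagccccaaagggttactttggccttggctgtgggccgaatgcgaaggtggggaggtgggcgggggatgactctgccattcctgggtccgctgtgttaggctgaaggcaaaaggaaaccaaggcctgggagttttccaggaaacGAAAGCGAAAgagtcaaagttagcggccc
HERC5: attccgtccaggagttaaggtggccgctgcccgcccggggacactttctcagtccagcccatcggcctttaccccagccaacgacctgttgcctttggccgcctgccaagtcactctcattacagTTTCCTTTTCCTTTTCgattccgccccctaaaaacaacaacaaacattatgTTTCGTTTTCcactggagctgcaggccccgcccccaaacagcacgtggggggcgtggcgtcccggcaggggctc
ISG15: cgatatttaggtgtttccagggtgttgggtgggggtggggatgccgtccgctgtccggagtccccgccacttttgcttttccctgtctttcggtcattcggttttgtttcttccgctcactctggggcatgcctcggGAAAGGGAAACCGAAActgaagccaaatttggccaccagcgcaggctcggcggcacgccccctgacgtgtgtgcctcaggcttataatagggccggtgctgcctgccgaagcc
PARP14 has 1 match, which begins 29 bases before the start. ISG15 has 2 overlapping matches that begin 113 and 107 bases before it, and HERC5 has 3 matches on the opposite strand, of which 2 overlap. The H2BC4, H2BC12 and PPM1K windows held no match.

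At an adjusted p under 0.1, 45 genes were counted (0.292%), 37 higher (0.240%) and 8 lower (0.0518%). Of the 37, 4 are among the 38 tested members of the interferon list. That list is a selection and does not hold every interferon-stimulated gene. Whether the others respond to interferon was not tested. NT5C3A, a pyrimidine nucleotidase, came closest, at 66.3, 52.8, 70.0, 41.5 and 78.7 CPM in stress replicates 1 to 5 and 22.7 to 37.1 CPM with post-stress (1.96-fold, adjusted p = 0.0542). TRIM38 and TRIM5, antiviral ligases, stood at 43.9 ± 7.56 against 28.0 ± 2.76 CPM and at 45.7 ± 6.65 against 28.0 ± 2.52 CPM (SD, n = 5; adjusted p = 0.0639 and 0.0747), each without overlap. SP110, a nuclear body protein, had 53.5 to 106 CPM with stress and 35.3 to 51.8 CPM with post-stress (adjusted p = 0.0747). LGALS3BP, a secreted glycoprotein, stood at 1158 ± 256 and 673 ± 98.5 CPM (SD, n = 5; adjusted p = 0.0791), SERPING1, the C1 inhibitor of complement, at 12.3 ± 4.54 and 3.23 ± 0.378 CPM (3.81-fold, adjusted p = 0.0905), and VTN, which encodes vitronectin, at 10.0 ± 4.56 and 2.66 ± 0.871 CPM (3.77-fold, adjusted p = 0.0934). Stress replicate 4 was the lowest of its group for each of these 7 genes.

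Antigen presentation genes lay on the same side as the interferon genes. All 12 tested members had a log2 fold change above 0, 8 had an unadjusted p under 0.05 (5.75% of all genes in that direction) and none passed, with a median of 0.79. B2M, the invariant subunit of class I molecules, stood at 803, 782, 789, 315 and 686 CPM in stress replicates 1 to 5 and at 388, 254, 328, 378 and 374 CPM in post-stress replicates 1 to 5 (1.96-fold, 1.44 to 2.67, adjusted p = 0.10). PSMB10, an immunoproteasome subunit, stood at 16.6 to 25.5 CPM with stress and 9.03 to 16.1 CPM with post-stress (1.59-fold, adjusted p = 0.105). CIITA, the switch of MHC class II, was at a log2 fold change of 0.13. Stress replicate 4 was the lowest of its group for B2M, and the list counts without it were added after seeing the data. Without stress replicate 4 B2M rose 2.22-fold (adjusted p = 0.00156), and 5 of the 12 passed (0.884% of all genes were higher), as did 6 by the Wald test of DESeq2 (0.952%). The other 9 listed genes did not pass the filter, among them TAP1 with 12 counts and HLA-C with 14 counts over 15 libraries. The levels of HLA genes are uncertain, since their reads may match other family members. TAP2, TAPBP, PSMB8 and PSMB9, which are not HLA genes, also had only 18, 17, 30 and 33 counts over 15 libraries. Whether such low counts reflect low expression or the assignment of reads was not tested.

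Among 19 tested tumour ligands that act on macrophages, 17 had a log2 fold change above 0, MDK alone passed, and the median was 0.20. CD274, which encodes the checkpoint ligand PD-L1, stood at 8.66, 10.5, 8.28, 2.5 and 8.18 CPM in stress replicates 1 to 5 and at 2.83, 0.547, 1.82, 3.13 and 3.07 CPM in post-stress replicates 1 to 5 (3.35-fold, 1.79 to 6.27, adjusted p = 0.131). Stress replicate 4 lay inside the post-stress range. CSF1, the macrophage growth factor, stood at 159 ± 18.7 and 131 ± 38.1 CPM (SD, n = 5; 1.21-fold, interval 0.897 to 1.64), and CCL2, a chemokine for monocytes, at 10.7 ± 4.72 and 7.14 ± 1.97 CPM (adjusted p = 0.404). All 24 tested NF-kB and inflammatory genes had a log2 fold change above 0, with a median of 0.23, and none passed. CXCL8, a neutrophil chemokine, stood at 914, 516, 596, 325 and 584 CPM in stress replicates 1 to 5 and at 394, 241, 374, 219 and 151 CPM in post-stress replicates 1 to 5 (2.13-fold, 1.33 to 3.40, adjusted p = 0.193). IL6 stood at 44.2 ± 11.4 and 24.3 ± 8.78 CPM (SD, n = 5; adjusted p = 0.239).

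Of the 8 genes lower with stress at an adjusted p under 0.1, CERK and RAB26 passed the test and the others did not. EPHX1, microsomal epoxide hydrolase of detoxification, stood at 268, 350.5, 319, 325 and 289 CPM in stress replicates 1 to 5 and at 424, 408, 451, 471 and 398 CPM in post-stress replicates 1 to 5, without overlap (0.721-fold, adjusted p = 0.0934). TUFM, the mitochondrial elongation factor, stood at 198 ± 9.66 and 244 ± 17.2 CPM (SD, n = 5; 0.809-fold, adjusted p = 0.0982), and MRPL24, a mitochondrial ribosomal protein that lay just outside that limit, at 70.4 ± 4.07 and 91.3 ± 9.13 CPM (0.772-fold, adjusted p = 0.10). FNBP4, a formin-binding protein, had the lowest fold among the 8, at 3.00 to 8.86 CPM with stress and 9.19 to 15 CPM with post-stress (0.474-fold, adjusted p = 0.0934). SAPCD2, which acts in orienting the mitotic spindle, stood at 29.4 ± 2.65 and 43.5 ± 2.68 CPM (0.677-fold, adjusted p = 0.0934). TRIM7, a ubiquitin ligase, and AGAP1, a regulator of ARF GTPases, had log2 fold changes of −0.76 and −0.44 (adjusted p = 0.0937 and 0.0982).

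Of 34 tested mitosis genes none passed, 33 had a log2 fold change below 0, 18 had an unadjusted p under 0.05 in that direction (5.37% of all genes) and the median was −0.30. KIF20A, a kinesin of cytokinesis, stood at 24.1, 23.8, 24.6, 28.9 and 24.3 CPM in stress replicates 1 to 5 and at 26.1, 39.4, 39.6, 36.7 and 39.6 CPM in post-stress replicates 1 to 5 (0.694-fold, 0.576 to 0.835, adjusted p = 0.125). NEK2, a centrosome kinase, stood at 19.0 to 25.1 CPM with stress and 25.6 to 31.7 CPM with post-stress (adjusted p = 0.201), and MKI67, the proliferation antigen Ki-67, at 120.4 ± 19.2 and 142 ± 25.9 CPM (SD, n = 5; 0.851-fold, interval 0.679 to 1.07). Of 35 S phase genes 34 were below 0, 7 had an unadjusted p under 0.05 and the median was −0.18. TYMS, which makes the thymidine nucleotide, was the 1 S phase gene of 35 without overlap, at 11.6 to 16.6 and 16.8 to 18.6 CPM (adjusted p = 0.305). Lower values with stress without overlap were seen in 0.752% of all tested genes. Against no stress 22 of the 34 mitosis genes fell with stress and none with post-stress, where 5.22% and 0.246% of all genes fell. Of the 35 S phase genes 27 fell with stress and 5 with post-stress.

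Of 25 tested genes of sterol synthesis and uptake 22 were below 0, 8 had an unadjusted p under 0.05 in that direction (5.37% of all genes did) and the median was −0.31, the lowest of the 38 lists, with no member passing. SREBF2, which encodes the factor that switches the pathway on, stood at 109, 131, 98.7, 139.7 and 94.1 CPM in stress replicates 1 to 5 and at 149, 150.3, 148, 153 and 150.4 CPM in post-stress replicates 1 to 5 (0.763-fold, 0.656 to 0.888, adjusted p = 0.139). FDPS and CYP51A1, enzymes of the pathway, stood at 43.7 ± 6.18 against 60.8 ± 6.35 CPM and at 5.82 ± 0.903 against 8.36 ± 0.607 CPM (SD, n = 5; adjusted p = 0.171 and 0.230). The groups overlapped for none of these 3, the only such members of the 25. Of all tested genes 0.752% were lower with stress without overlap.

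No mitochondrial-encoded or ribosomal protein gene passed. All 13 protein-coding genes of the mitochondrial genome were below 0, with a median of −0.23, and took 2.79% ± 0.484 of human counts with stress and 3.31% ± 0.344 with post-stress (SD, n = 5; difference −0.512 percentage points, exact permutation p = 0.111, adjusted over 2 shares p = 0.1905). Without stress replicate 2 the difference was −0.715 percentage points (exact permutation p = 0.0238, not adjusted). MT-ND3, a complex I subunit, stood at 722, 823, 794, 654 and 607 CPM in stress replicates 1 to 5 and at 897, 1087, 1030.3, 865 and 923 CPM in post-stress replicates 1 to 5 (adjusted p = 0.139). All 34 ribosomal protein genes were below 0, with a median of −0.20 and 5 at an unadjusted p under 0.05 (5.37% of all genes in that direction). RPL4, the first of them by p, stood at 1989 ± 185 and 2543 ± 355 CPM (SD, n = 5; adjusted p = 0.218). For the ribosomal list the no-stress tumours did not side with post-stress, since its median was 0.07 for stress and 0.27 for post-stress against no stress.

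**Figure D3:**
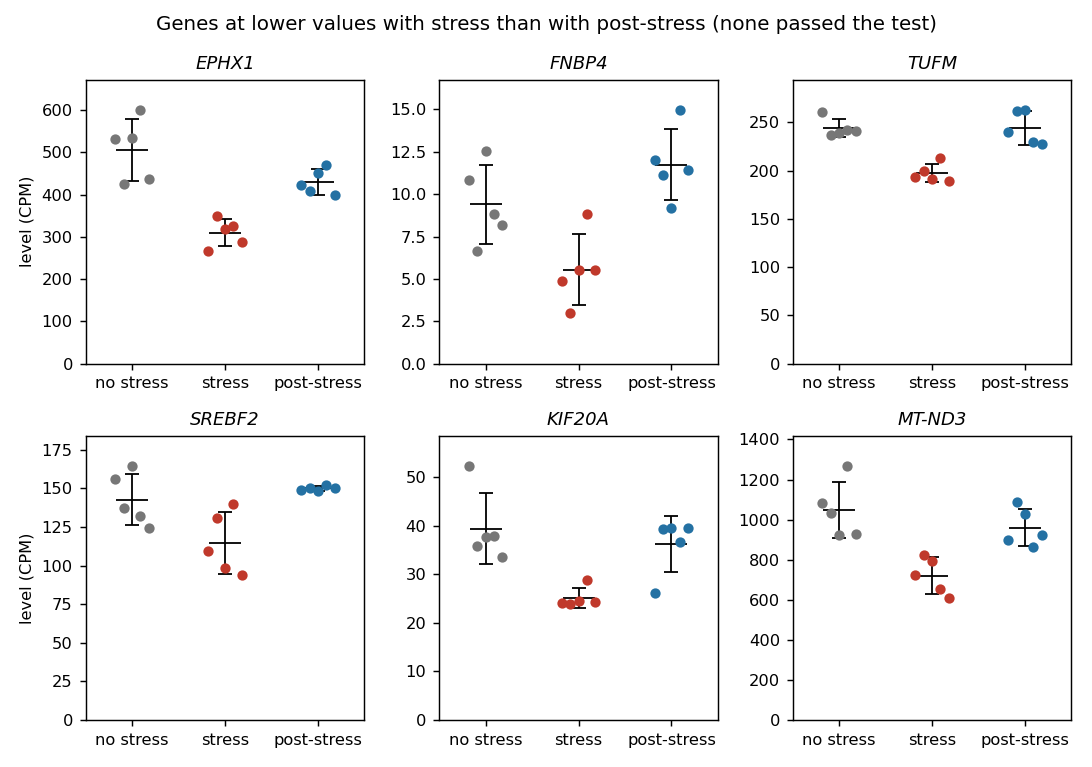
Levels in CPM of 6 genes that were lower with stress than with post-stress without passing the test, with 1 point per tumour and the mean ± SD (n = 5) of each group. SREBF2 sits between 148 and 153 CPM in all post-stress tumours and between 94.1 and 139.7 CPM in stress tumours, and the KIF20A groups overlap through post-stress replicate 1 (26.1 CPM) and stress replicate 4 (28.9 CPM).

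**Figure D4:**
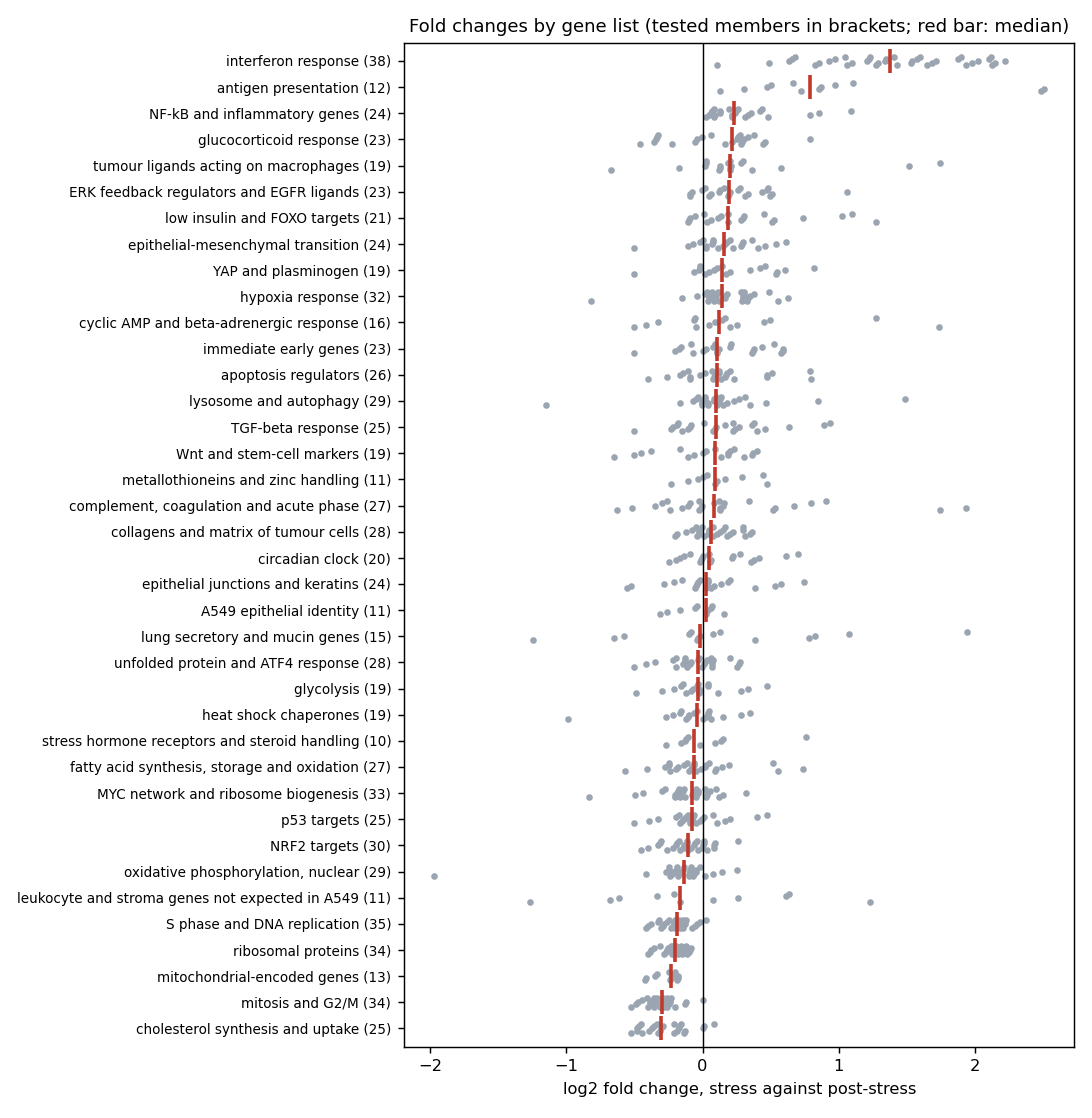
Log2 fold change of stress against post-stress for the tested members of 38 gene lists, 1 point per gene, with the list's median as a red bar and the number of tested members in brackets. The interferon list (median 1.38) and antigen presentation (0.79) lie farthest above 0 and sterol synthesis (−0.31) and mitosis (−0.30) farthest below it.

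Genes that glucocorticoids are known to switch on were examined next. Among 23 tested glucocorticoid response genes none passed, 14 were above 0 and the median was 0.22. FKBP5, a chaperone that the glucocorticoid receptor switches on, stood at 185, 354, 113, 206 and 209 CPM in stress replicates 1 to 5, at 226, 416, 183, 204 and 335 CPM in post-stress replicates 1 to 5 and at 101 ± 13.6 CPM without stress (SD, n = 5). It rose against no stress with stress (log2 fold change 1.08, adjusted p = 0.0284) and with post-stress (1.43, adjusted p = 0.0353), and stress over post-stress was 0.783-fold with an interval of 0.519 to 1.18. TSC22D3, another direct target, stood at 156 ± 54.7 and 157 ± 51.0 CPM (SD, n = 5; interval of the fold 0.680 to 1.46), and PER1, a clock gene with a glucocorticoid element, at 41.6 ± 20.1 and 39.7 ± 22.9 CPM (interval 0.472 to 2.31). NR3C1, the receptor itself, was 1.10-fold (interval 0.974 to 1.24).

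Immediate early genes, which rise within minutes of a signal, include EGR1 and FOS, which rose over no stress with both schedules. EGR1 stood at 35.7 ± 9.72 CPM with stress, 39.7 ± 18 CPM with post-stress and 7.95 ± 1.71 CPM without (SD, n = 5; log2 fold changes against no stress 2.16 and 2.32, adjusted p = 0.00245 and 0.00658). Between the schedules it was 0.898-fold with an interval of 0.584 to 1.38, and FOS 1.15-fold with an interval of 0.691 to 1.93 (log2 fold changes against no stress 2.02 and 1.81). KLF6, a stress-responsive factor, stood at 283 ± 62.6 and 189.7 ± 25.1 CPM (SD, n = 5; 1.49-fold, adjusted p = 0.212). Of 23 tested immediate early genes 17 were above 0 and 2 had an unadjusted p under 0.05 in that direction (5.75% of all genes did). Against no stress 14 rose with stress (5.23% of all genes) and 3 with post-stress (0.596%), with medians of 0.93 and 0.58.

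Of 32 tested hypoxia genes, which cells raise when oxygen is low, none passed between the schedules, 29 were above 0 and 4 had an unadjusted p under 0.05 in that direction (5.75% of all genes did), with a median of 0.14. NDRG1, a target of hypoxia-inducible factor, stood at 671 to 1043 CPM with stress, 485 to 1368 CPM with post-stress and 132 to 344 CPM without stress. It rose against no stress in both (log2 fold change 1.92 and 1.85, adjusted p = 0.00323 and 0.0103), and its fold between the schedules was 1.05 with an interval of 0.684 to 1.60. HK2, a hexokinase, stood at 82.7 ± 20.5, 59.6 ± 26 and 18.6 ± 7.68 CPM in the same order (SD, n = 5; 1.39-fold, interval 0.857 to 2.24), and VEGFA, the vessel growth factor, was 1.23-fold (interval 0.951 to 1.59). Against no stress 25 of the 32 genes rose with stress (5.23% of all genes) and 10 with post-stress (0.596%), with medians of 1.01 and 0.78.

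IGFBP1 is a secreted binding protein of insulin-like growth factors that low insulin and glucocorticoids raise. Its mean was highest with stress and lowest without, though the difference between the schedules did not pass. It stood at 405, 398, 397, 367 and 339 CPM in stress replicates 1 to 5, at 292, 145, 139, 151 and 163 CPM in post-stress replicates 1 to 5 and at 59.4, 85.1, 50.03, 70.5 and 100.2 CPM in no-stress replicates 1 to 5. No 2 groups overlapped, and post-stress replicate 1 stood well above the rest of its group. Stress over post-stress was 2.14-fold (1.57 to 2.93) and did not pass (adjusted p = 0.0791), and it passed without post-stress replicate 1 or without stress replicate 4. Against no stress it rose with stress (log2 fold change 2.39, adjusted p = 1.02e-04) and with post-stress (1.29, adjusted p = 0.0115). Of 21 tested genes of low insulin signalling and FOXO factors 17 were above 0 and none passed, with a median of 0.19.

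**Figure D5:**
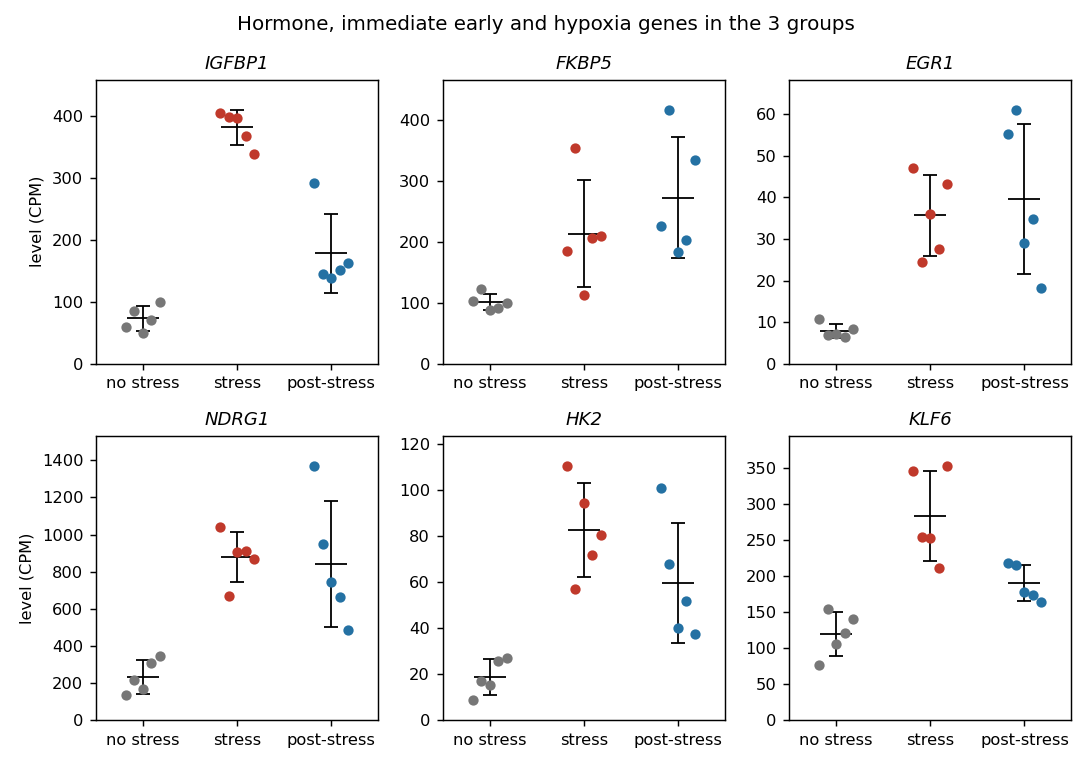
Levels in CPM of IGFBP1, FKBP5, EGR1, NDRG1, HK2 and KLF6, with 1 point per tumour and the mean ± SD (n = 5) of each group. IGFBP1 separates all 3 groups, with group means of 73.0 (no stress), 382 (stress) and 178 CPM (post-stress), while FKBP5, EGR1 and NDRG1 overlap between the restrained groups.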

How the data were processed

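Raw read counts per gene in 15 tumour libraries were deposited by the authors in 1 table that holds human and mouse genes. Trimmomatic 0.39, HISAT2 2.2.1, featureCounts 2.0.6, edgeR and DESeq2, and the builds hg38 and mm10, are named in the submitters' processing notes, without role or order. The sources used here do not give annotation, strandedness or the handling of reads that match both genomes. Per the labels' protocols, RNA was extracted with TRIzol. The table's columns named Pre, Post and Control were taken as the stress, post-stress and no-stress groups by their labels.

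From the counts, human rows alone were scaled by TMM, filtered with filterByExpr (15435 genes, 99.8% of human counts) and tested with edgeR 4.0.16 (robust quasi-likelihood, R 4.3.3) over all 3 groups, with Benjamini-Hochberg adjustment over all tested genes. Fold changes are stress over post-stress. CPM per library are TMM-scaled with no prior count, and list levels are mean log2 CPM with a prior count of 2. Shares of counts were compared by exact 2-sided permutation over 252 splits. Groups do not overlap where the lowest library of one lies above the highest of the other. Gene symbols came from a reference list of gene names, hg38 coordinates from GENCODE 29 and promoter windows from RefSeq.

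Genes named were the called genes, the 12 smallest p in each direction, the 4 smallest p in each of 38 lists (945 genes) and a fixed set of hormone, hypoxia and immune genes. Neighbours and family members of called genes, and other list members, were chosen after their values were seen. The members and lists were chosen with earlier results of these data known. The alternatives were DESeq2 1.42.0 size factors and Wald test, limma 3.58.1 with voom, 2 other filters, the 10 restrained libraries alone, a covariate for the mouse share, a replicate block and leaving out each library. An adjusted p threshold of 0.1, and the list counts without stress replicate 4, were added after seeing the data. On simulated data for stress against post-stress (15435 genes) the edgeR test recovered 46.3% of genes changed 1.5-fold, 69.6% of those changed 2-fold and 76.6% of those changed 3-fold, with 3 false among 131 calls. The simulation drew genes independently and set no library apart as stress replicate 4 was. These rates may therefore not hold for the real data. Results of some genes are not reported here.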

Additional observations from a re-analysis of the deposited data

Results flagged for a closer look

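Of 399 groups of 5 libraries examined, 28 (7.02%) had a library far from the other 4 by Dixon's criterion (critical value 0.71), which chance meets in about 1 of 20 groups. That rate holds for independent, normally distributed values, whereas these genes and lists share members and vary together. The 28 are therefore not separate observations. Stress replicate 4 accounted for 11 of the 28. It stood at 315 CPM for B2M, 45.9 CPM for HERC6, 85.3 CPM for MX1, 333 CPM for PARP14, 4.33 CPM for SERPING1 and 53.5 CPM for SP110, each below the rest of its group. It was also apart at 6.02 CPM for BTC, an EGFR ligand, at 28.9 CPM for KIF20A, and at a mean log2 CPM of 5.86 for the interferon list, 6.69 for the macrophage ligands and 6.58 for the unfolded protein and ATF4 list.

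In the other stress tumours, CCL2 was 18.9 CPM in replicate 1 and the epithelial-mesenchymal list 7.23 in replicate 5. Among post-stress tumours, IGFBP1 was 292 CPM and KIF20A 26.1 CPM in replicate 1. BTC was 2.40 CPM, IFI35, an interferon-induced protein, 62.6 CPM and the lysosome list 6.11 in replicate 2, SMPD2 was 12.5 CPM in replicate 3, and HLA-B 0.687 CPM in replicate 4. Among no-stress tumours, KIF20A was 52.3 CPM and TUFM 261 CPM in replicate 1, CMTR1, an mRNA cap methyltransferase, 50.8 CPM and PER1 31.7 CPM in replicate 2, SNHG19 29.9 CPM in replicate 4 and FOS 42.3 CPM in replicate 5. The mitochondrial-encoded list was 10.6 and its share of human counts 3.38% in no-stress replicate 3, the lowest of that group.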

How the results depend on the processing

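The count of 6 changed genes (4 higher, 2 lower) became 203 (147, 56) with the Wald test of DESeq2, 36 (22, 14) without a filter on low counts, 1 (1, 0) with the 10 restrained libraries alone, 0 with the mouse share as a covariate and 45 (37, 8) at an adjusted p under 0.1. Leaving out each library gave 0 to 189 changed genes, 0 to 138 higher and 0 to 51 lower, and the cause was not tested. At an unadjusted p under 0.05 these fits counted 1349 to 2048 genes. DESeq2 size factors, limma-voom and a minimum of 1 CPM in 5 libraries each called the same 6 genes. With a replicate block 0 genes passed (0 higher, 0 lower). The replicate numbers share no stated animal or batch, 4 of 5 correlations of same-numbered stress and post-stress deviations were negative (−0.140 to 0.046), and no stress library matched its own number best.

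The median of the interferon list stayed between 1.27 and 1.58 over 23 alternatives. The difference in mitochondrial-encoded share ranged from −0.715 to −0.410 percentage points when 1 library was left out, and was −0.715 (exact permutation p = 0.0238) without stress replicate 2. Log2 fold changes near 0 changed sign. TSC22D3 was at 0.073 with the mouse covariate and at −0.18 to 0.13 when 1 library was left out. In the same way PER1 ranged from −0.17 to 0.32, FOS from −0.0072 to 0.35, EGR1 from −0.34 to 0.048 and NDRG1 from −0.082 to 0.31. Depth did not separate the groups, at 12877165 to 15892705 human counts.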

Other observations

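Several lists that describe the state of an epithelial tumour cell held no gene that passed between the schedules. Of 24 tested epithelial-mesenchymal transition genes 20 had a log2 fold change above 0, with a median of 0.16, and of 24 epithelial junction and keratin genes 14 did, with a median of 0.03. Of 30 NRF2 targets, which A549 cells express at a high level, 22 were below 0 and 6 of these had an unadjusted p under 0.05 (5.37% of all genes; median −0.11). Nuclear genes of oxidative phosphorylation had 25 of 29 below 0 (median −0.13), and MYC network and ribosome biogenesis genes 24 of 33 (median −0.08).

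Of 26 tested apoptosis regulators 18 were above 0 and 6 had an unadjusted p under 0.05 in that direction (5.75% of all genes; median 0.11). Lysosome and autophagy genes were above 0 in 21 of 29 (median 0.10), and p53 targets below 0 in 18 of 25 (median −0.08). In the list of complement, coagulation and acute phase genes, 3 of 27 had groups that did not overlap, all higher with stress (0.952% of all tested genes were so), and the median was 0.09. Of 10 tested stress hormone receptor and steroid handling genes, none had an unadjusted p under 0.05 by edgeR (median −0.06).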
